A study of Mus musculus with 19 samples.

Results

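The genes described here are 34 named components and regulators of motile cilia and markers of the ependyma, out of 55487 genes in each table. They were taken by symbol, and all 34 were found. RNA sequencing had been done on 13 libraries from snap-frozen mouse spinal cord, 9 labelled miR-146a KO (knockout) and 4 labelled miR-146a WT (wild type), and on 6 libraries from motor neuron cultures. The cultures were motor neurons made from the mouse embryonic stem cell line RW.4 (genotype wild-type) with retinoic acid and SAG, a Smoothened agonist, and transfected with Lipofectamine 2000 and 10 nM of either a miR-146a LNA (3 libraries) or a control LNA (3 libraries) for 72 h. LNAs are chemically locked oligonucleotides, used here to block a microRNA by base pairing with it. All cultures thus derive from 1 stem cell line, and all of them, the controls included, had been transfected. No strain, age, sex or batch is given in the labels, nor whether each library is its own animal or culture. The p-values therefore measure the spread between these libraries alone, which may be technical.

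Motile cilia are beating, hair-like organelles. Each is built on a ring of doublet microtubules around a central pair, outer and inner dynein arms drive the sliding of the doublets, and radial spokes, nexin links and the central pair apparatus regulate it. In the spinal cord, ciliated ependymal cells line the central canal. The transcription factor Foxj1 switches on the motile cilia program, Mcidas acts upstream of it in multiciliated cells, and RFX factors act on many of the same genes. In bulk tissue, fewer cells of a type and less RNA per cell cannot be told apart.

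The promoters are shown first, as a description of sequence. Whether their motifs bear on how the members vary across the cords was not tested. RefSeq windows on GRCm38.p6, from 250 bases before to 50 bases after an annotated start, were given for 28 of the 34 members (33 windows). The half-site of RFX factors, GTTGCC on either strand, was present in 15 of the 33 windows, or 45.5%, against 12.5% of all 32851 windows, and 14 of the 28 members had it in at least 1 window. The full X-box palindrome, which contains a related half-site on each side, was found in 0 of the 33 windows and in 0.451% of all windows. The forkhead core TGTTTAC, on either strand, lay in 3 of the 33 (9.09%), those of Ak7, Cfap43 and Sntn, against 3.65% of all windows. A match is only a string of letters and no evidence of binding. The 250 bases before the start are printed for the 4 genes that followed the other members most closely in the cords among those with the half-site in that stretch. The half-site was also present in windows of Tekt4 and Mcidas, whose correlations with the other members were 0.15 and 0.004. It was absent from those of Ak7 and Cfap43, whose correlations were 0.93 and 0.91. Capitals mark the half-site on either strand.
Spag16 (chr1:69826720-69826969, plus strand): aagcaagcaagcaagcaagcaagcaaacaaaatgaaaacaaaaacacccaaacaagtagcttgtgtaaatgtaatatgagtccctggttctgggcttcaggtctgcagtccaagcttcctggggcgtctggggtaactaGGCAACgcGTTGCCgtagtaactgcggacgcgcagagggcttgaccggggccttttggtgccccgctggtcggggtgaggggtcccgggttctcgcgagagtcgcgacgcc
Ccdc153 (chr9:44240427-44240676, plus strand): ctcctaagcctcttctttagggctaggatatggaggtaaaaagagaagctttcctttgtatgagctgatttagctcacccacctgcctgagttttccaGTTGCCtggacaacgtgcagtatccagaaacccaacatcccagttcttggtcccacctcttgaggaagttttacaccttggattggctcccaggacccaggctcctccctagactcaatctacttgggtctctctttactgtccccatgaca
Cfap44 (chr16:44394549-44394798, plus strand): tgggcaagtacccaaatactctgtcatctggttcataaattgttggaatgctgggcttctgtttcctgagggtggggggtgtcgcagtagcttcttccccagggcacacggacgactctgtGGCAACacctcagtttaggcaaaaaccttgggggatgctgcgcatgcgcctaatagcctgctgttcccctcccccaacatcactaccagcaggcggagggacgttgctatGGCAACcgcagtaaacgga
Dnah10 (chr5:124724835-124725084, plus strand): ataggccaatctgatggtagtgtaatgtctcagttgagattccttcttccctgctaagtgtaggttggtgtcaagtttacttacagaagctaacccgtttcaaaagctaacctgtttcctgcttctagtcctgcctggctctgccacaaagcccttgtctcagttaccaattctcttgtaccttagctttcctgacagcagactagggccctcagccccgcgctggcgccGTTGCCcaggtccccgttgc
In Spag16 the half-sites begin 111 and 103 bases before the start and lie on opposite strands, 2 bases apart. In Ccdc153 the half-site begins 152 bases before the start, in Cfap44 they begin 129 and 19 bases before it, and in Dnah10 it begins 20 bases before it.

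Before the results, 2 facts about the libraries have to be stated. The cords had totals of 28163289 to 39577247 counts, where 3 counts equal 0.0758 to 0.1065 CPM (counts divided by the library total and scaled to 1e6). The cultures had 40647549 to 65471742, where 3 counts equal 0.0458 to 0.0738 CPM. These limits cover counting error only. The targeted gene Mir146 had 1 count in the 9 knockout cords together and 0 in the wild-type cords and in both culture groups, so it checks no label. Its neighbour Pttg1, which encodes securin, ranged over 14.9 to 17.4 normalised CPM among wild-type cords and was at 1.06 to 1.81 in 8 knockout cords, and at 13 in the library labelled knockout replicate 9, which thus goes against its label at this gene. Knockout replicate 7 held 6340 normalised CPM of 8 skeletal muscle markers, against 3.43 to 16.5 in the other 12 cords. Counts of members, their median, the member score and the correlations in the cords are therefore also given without these 2 libraries. Normalised CPM are CPM scaled by TMM (trimmed mean of M values) within a comparison, and FPKM are the deposited values per length of gene model and library size.

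In the wild-type cords, 32 of the 34 genes had more than 3 counts in every library, most of them at low levels. Foxj1 (chromosome 11, 116330704 to 116335399, minus strand, GRCm38) had the highest mean level per length, 15.2 ± 1.64 FPKM (SD, n = 4). The radial spoke head gene Rsph1 followed at 3.21 ± 0.426 FPKM, the nexin link gene Drc1 at 1.89 ± 0.297, and Ccdc153, a marker of ependyma, at 1.69 ± 0.87. Rsph1 did not overlap Foxj1 in FPKM, whereas the ranges of Drc1 (1.64 to 2.24) and Ccdc153 (1.12 to 2.98) overlapped each other. Among the dynein heavy chains, levels per length ran from 0.0745 ± 0.01 FPKM for Dnah3 to 0.793 ± 0.124 for Dnah1. Mcidas, the regulator multicilin, was low, at 0.188 ± 0.0319 FPKM from 61 counts over 4 libraries.

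Of the ependymal markers named in the set, Tmem212, a membrane protein, stood at 1.39 ± 0.441 FPKM. Mia was at 0.0735 ± 0.0579 FPKM, from 10 counts in the 4 wild-type cords, and 41.2% of its exon bases are shared with Gm21983 on the same strand, so these counts are uncertain as well as few. Sntn, which encodes the ciliary tip protein sentan, had 2 counts in the 4 wild-type cords. Transcripts of Foxj1, Ccdc153, Tmem212 and the axonemal genes were thus present in the cords, as the label of motile cilia and ependyma implies, while Mia and Sntn were at or near the limit of detection. Exons overlap another gene on the opposite strand over 20.8% of Tekt2, 15.7% of Spag17, 10.5% of Dnah3 and 10.1% of Zmynd10. The strand setting of the counting is not given in the sources used here, and reads from such partners may be mixed.

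**Figure D1:**
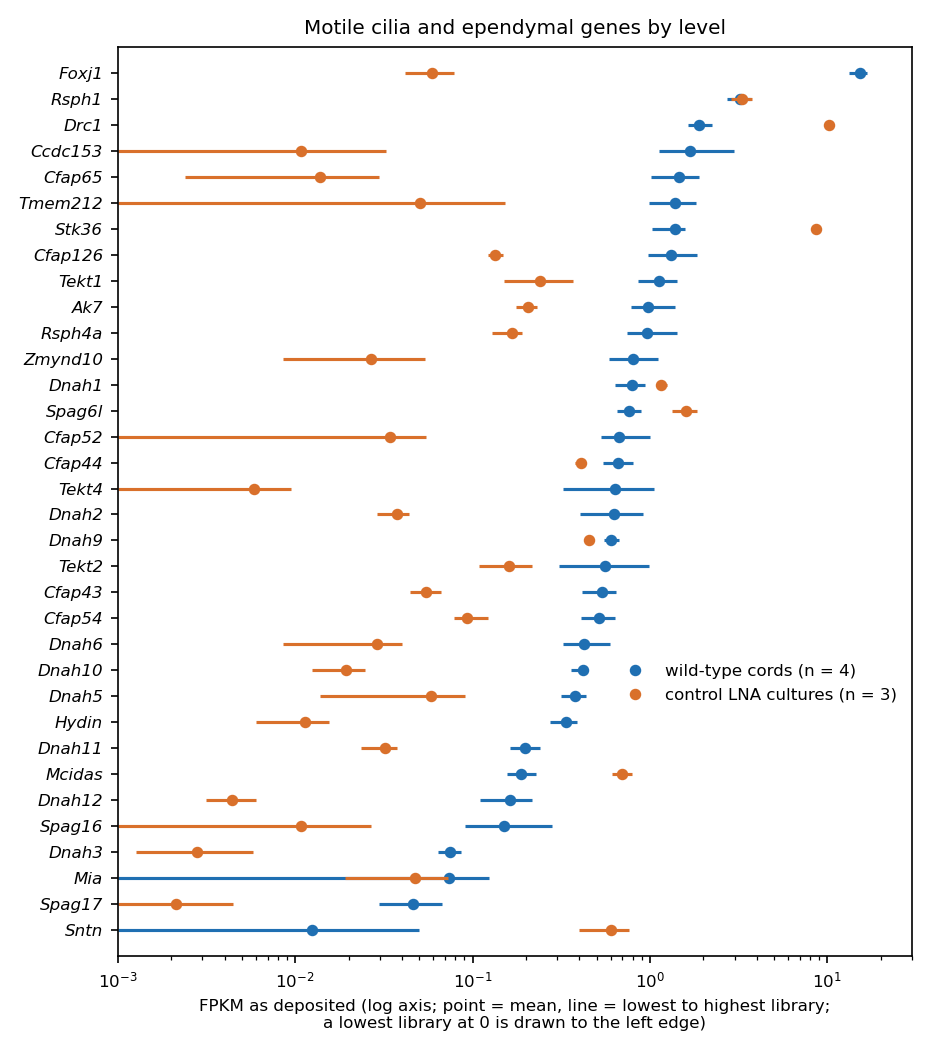
Deposited FPKM (log axis) of all 34 genes in the 4 wild-type cords (blue) and the 3 control LNA cultures (orange), as the mean (point) and the lowest to highest library (line), ordered by the mean in cords. Most orange points lie far to the left of the blue ones, while Drc1, Stk36, Spag6l, Dnah1, Mcidas and Sntn lie to the right and Rsph1 overlaps.

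Against the motor neuron cultures, the wild-type cords had the higher level for most members, and the regulator Foxj1 had the largest log2 fold change among members with more than 6 counts in the control cultures. The comparison sets whole tissue beside cultures whose cell composition was not tested. Of the floor plate markers, the control cultures held Spon1, Shh and Ntn1 at 71.5, 23.1 and 7.62 normalised CPM. Foxa2, Corin, Foxa1 and Lmx1a were at 1.03, 0.0872, 0.0728 and 0.049. From the glial marker lists, Cnp, Mbp and Sox9 stood at 82.2, 33.9 and 20.4. Other markers of these lists were lower, among them Gja1 at 10.5, Mog at 3.29, Slc1a3 at 0.739 and Gfap at 0.0553. No batch is given in the labels, so material, preparation and sequencing run cannot be told apart here. Foxj1 stood at 34.6, 38.2, 43.6 and 45.1 normalised CPM in the wild-type cords (scaled with the knockout cords) and at 0.110, 0.151 and 0.211 in the control cultures (scaled with the LNA cultures). No culture library came near any cord library. In the joint fit the means were 38.9 ± 4.53 and 0.160 ± 0.0522. The log2 difference was 7.91, with an SE of 0.178, and edgeR's quasi-likelihood test with Benjamini-Hochberg adjustment gave an adjusted p of 4.76e-16.

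Of 33 members tested, 26 were higher in the wild-type cords, 6 were lower and 1, Rsph1, did not pass. Among all 21106 genes tested, 44.9% were called higher and 40.5% lower, so calls in either direction were common. The median log2 fold change was 3.20 over the members and 0.14 over all genes. Some members passed the filter only through the cords, where they are high. Dnah12, Dnah3 and Tmem212 among them had 9, 7 and 6 counts in the control cultures together. The count of 26 and the median rest in part on such members. With a filter of 1 CPM, where other members are tested, the median was 2.671. Among genes of the central pair apparatus, Cfap65 stood at 11.0 ± 2.64 normalised CPM in cords and 0.112 ± 0.116 in cultures and Hydin at 5.92 ± 0.792 and 0.213 ± 0.0938 (log2 fold changes 6.54 and 4.77). Of the inner arm dynein heavy chains, Dnah10 was at 6.61 ± 0.685 against 0.323 ± 0.109 and Dnah2 at 9.22 ± 3.68 against 0.583 ± 0.125 (log2 4.34 and 3.98). Ccdc153 had 4 counts, Tekt4 2 and Spag17 3 in the 3 control cultures together, so no fold is given for them. Tekt4 encodes a tektin, a filament protein of the doublets, and Spag17 a central pair protein.

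The 6 members that were higher in cultures included the most abundant ones there. Stk36, a Fused family kinase needed for central pair assembly (chromosome 1, 74601445 to 74636894, plus strand), stood at 53.6, 57.0 and 59.7 normalised CPM in the control cultures and at 6.95, 9.06, 9.59 and 10.3 in the wild-type cords. Drc1 (chromosome 5, 30281388 to 30366695, plus strand) stood at 27.2, 27.8 and 28.1 against 4.44, 4.62, 5.44 and 5.99. The groups did not overlap at either gene, and the log2 fold changes of cords over cultures were −2.74 (SE 0.106) and −2.51 (SE 0.106). Mcidas was at 0.437 ± 0.0818 in cords and 1.71 ± 0.239 in cultures (log2 −1.96), Spag6l, a central pair protein, at 3.41 ± 0.509 and 7.49 ± 1.26 (−1.13), and Dnah1 at 10.1 ± 1.41 and 15.6 ± 1.06 (−0.63). Sntn had 2 counts in the 4 cords and 125 in the 3 cultures. Rsph1 did not differ beyond the spread, at 4.29 ± 0.493 and 4.68 ± 0.695 (log2 −0.13, SE 0.162, adjusted p = 0.474). The call of the outer arm dynein Dnah9 was the least firm: it stood at 9.36 ± 0.909 and 7.45 ± 0.376 (log2 0.33, adjusted p = 0.0162), and the adjusted p was 0.0689 without control replicate 2, 0.0645 without control replicate 3 and 0.0606 with no filter on low counts.

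Other genes of the pathway went both ways between cord and culture, as did all genes tested (44.9% called higher and 40.5% lower). Of 56 other axonemal genes tested, 40 were higher in cords and 9 lower, with Tekt5 at 32.4 ± 3.24 against 0.0506 ± 0.0602 normalised CPM and the nexin link gene Gas8 at 26.4 ± 2.96 against 76.8 ± 1.76. Dnal1, a dynein light chain, was at 37.8 ± 2.44 against 2.76 ± 0.383. Of 17 docking and assembly genes, 8 were higher and 7 lower (Pih1d1 15.1 ± 1.48 against 82.4 ± 2.46, Spag1 21.6 ± 1.14 against 3.82 ± 0.663, Ccdc114 6.15 ± 1.02 against 0.236 ± 0.097). This split was near that of all genes. Of 17 genes of multiciliogenesis, 10 were higher and 4 lower. Among these were the RFX factors Rfx4, at 37.3 ± 2.78 against 0.433 ± 0.0747, and Rfx2, at 7.54 ± 0.902 against 0.11 ± 0.0157. Cdc20b, which acts in centriole amplification, went the other way, at 0.0355 ± 0.0276 in cords and 9.66 ± 0.578 in cultures. Genes of intraflagellar transport and the primary cilium, the single non-motile cilium that neurons also carry, were lower in cords in 26 of 43 cases and higher in 12, as Ift81 (21.4 ± 0.427 against 72.9 ± 4.54), Kifap3 (211 ± 5.13 against 512 ± 2.92) and, higher, Tulp3 (28.8 ± 1.57 against 3.56 ± 0.244). Of 17 other ependymal genes, 11 were higher and 2 lower, the latter being Cd24a (63.8 ± 4.24 against 410 ± 12.6) and Vim (83.7 ± 8.04 against 165 ± 3.47), a cell surface protein and an intermediate filament protein. The gene with the smallest p after these was Ccdc180, at 2.1 ± 0.705 against 0.0311 ± 0.012.

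The knockout and wild-type cords were compared next, to ask whether the cilia genes differ when miR-146a is absent. No member passed the adjusted threshold. Of 32 members tested (all but Mia and Sntn), 28, or 87.5%, had a positive log2 fold change, with a median of 0.31, against 53.1% and 0.02 for all 22174 genes tested. The test called 0 of them at an adjusted p below 0.05, as it did among all genes (0.0%). At an unadjusted p below 0.05, 5 members (15.6%) were higher, against 7.53% of all genes, and 0 lower, against 6.8%. In 0 members did every knockout library lie above every wild-type library, a pattern found for 0.505% of all genes. DESeq2 called 0 of the 32, and 1.72% of all genes in either direction. With the library labelled knockout replicate 9 left out, 4 members passed the unadjusted threshold (15.4% of all genes in either direction did), 29 were positive and the median was 0.27. Without knockout replicates 7 and 9, 10 passed (15% of all genes), 31 were positive, the median was 0.35 and 0 passed the adjusted threshold. Single members moved with these libraries: the log2 fold changes of Dnah3 and Dnah5 were 0.27 and 0.16 with them and 0.08 and 0.05 without, and those of Rsph1 and Rsph4a 0.10 and 0.10 with them and 0.24 and 0.29 without. The count at the unadjusted threshold rests on single libraries and on the tool. It was 0 of 32 without wild-type replicate 1 (9.15% of all genes), 2 without wild-type replicate 3 (11.0%), 9 without knockout replicate 4 (11.8%) and 9 without knockout replicate 7 (13.3%), and limma gave 11 (19.0%). Scaling left the direction of most members in place: 31 of 32 were positive with library size scaling and 29 with the relative log expression method.

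Neither regulator differed beyond the spread between libraries. Foxj1 stood at 34.6, 38.2, 43.6 and 45.1 normalised CPM among the wild-type cords and from 34.3 to 53.4, with a median of 43.7, in the 9 knockout cords. The ranges overlapped almost fully, and 3 knockout libraries lay above every wild-type library and 1 below. The estimated difference was log2 0.10 (SE 0.105, adjusted p = 0.679). Mcidas was at 0.548 ± 0.16 in knockout and 0.454 ± 0.0864 in wild-type cords (log2 0.27, SE 0.299).

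The outer arm dynein heavy chains, motors on the outer side of the doublets, were positive in 3 of 3 cases. Dnah11 (chromosome 12, 117877982 to 118199043, minus strand) stood at 2.36, 2.39, 3.15 and 3.66 normalised CPM among the wild-type cords and from 2.33 to 8.99, with a median of 4.93, in the knockout cords. Of the knockout libraries, 6 lay above every wild-type library and 1 below. The estimated difference was log2 0.78 (SE 0.298, adjusted p = 0.299). The highest was the library labelled knockout replicate 9. Without knockout replicates 7 and 9, the log2 fold change was 0.66 (SE 0.256). Dnah9 (chromosome 11, 65831282 to 66168551, minus strand) stood at 8.89, 8.91, 10.4 and 10.7 in the wild-type cords and from 9.3 to 21, with a median of 12.8, in the knockout cords (log2 0.42, SE 0.173, adjusted p = 0.312). Here, too, 6 knockout libraries were above all wild-type ones, and the highest was the library labelled knockout replicate 9. Without knockout replicates 7 and 9, the log2 fold change of Dnah9 was 0.35 (SE 0.112). Dnah5 differed less, at 6.73 ± 2.05 against 6.0 ± 1.12.

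Of the 6 inner arm dynein heavy chains, 5 were positive. Dnah12 (chromosome 14, 26693274 to 26891703, plus strand) had the smallest p of all members. It stood at 1.34, 1.5, 2.43 and 2.58 normalised CPM among the wild-type cords and from 1.91 to 5.82, with a median of 3.25, in the knockout cords. Of the knockout libraries, 7 lay above every wild-type library and 0 below, and edgeR gave log2 0.76 (SE 0.289, adjusted p = 0.294). The highest was again the library labelled knockout replicate 9. Without knockout replicates 7 and 9, the log2 fold change was 0.655 (SE 0.249). Dnah10 was at 8.80 ± 2.3 against 6.86 ± 0.729 (log2 0.36) and Dnah6 at 7.43 ± 2.15 against 5.67 ± 1.52 (log2 0.39). Dnah1 and Dnah3 were closer to the wild-type level (log2 0.11 and 0.27), and Dnah2 was at 9.41 ± 2.68 against 9.58 ± 3.87 (log2 −0.03). Wild-type replicates 2 and 4 and knockout replicate 7 held the highest Dnah2 levels, at 14.4, 11.0 and 15.6.

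Radial spoke and central pair genes showed small differences with wide spread. Rsph1 and Rsph4a, of the spoke heads, had log2 fold changes of 0.10 and 0.10. The central pair genes were positive in 6 of 7 cases with a median of 0.41. Cfap54 (chromosome 10, 92775619 to 93081618, minus strand) stood at 6.03, 7.66, 7.71 and 9.28 normalised CPM among the wild-type cords and from 5.85 to 14.3, with a median of 10.7, in the knockout cords. Of the knockout libraries, 6 were above all wild-type ones and 1 was below (log2 0.41, SE 0.213, adjusted p = 0.382). The highest was the library labelled knockout replicate 9. Without knockout replicates 7 and 9, the log2 fold change was 0.43 (SE 0.165). Hydin (8.21 ± 2.34 against 6.15 ± 0.824), Spag16 (1.56 ± 0.596 against 1.03 ± 0.581) and Spag17 (0.571 ± 0.328 against 0.394 ± 0.152) had log2 fold changes of 0.42, 0.59 and 0.53, while Cfap65, Stk36 and Spag6l were at 0.21, 0.06 and −0.01.

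The tether, nexin link and doublet genes were positive in 8 of 9 cases with a median of 0.34. Tekt4 (chromosome 17, 25454615 to 25476602, plus strand) had the largest log2 fold change of the members. It stood at 0.653, 0.976, 1.36 and 2.12 normalised CPM among the wild-type cords and from 1.09 to 5.29, with a median of 2.59, in the knockout cords. Of these, 5 lay above every wild-type library and 0 below (log2 1.02, SE 0.396, adjusted p = 0.302), and the highest 3 were knockout replicates 5, 4 and 6. Cfap44, part of the tether that holds inner arm dyneins (chromosome 16, 44394796 to 44482428, plus strand), stood at 4.77, 5.50, 5.51 and 6.76 in the wild-type cords and from 4.60 to 11.5, with a median of 7.01, in the knockout cords. The knockout libraries above every wild-type one numbered 5, and 1 lay below (log2 0.46, SE 0.209, adjusted p = 0.341). The highest Cfap44 level was in the library labelled knockout replicate 9. Without knockout replicates 7 and 9, the log2 fold change of Cfap44 was 0.45 (SE 0.155). Cfap43, the partner of Cfap44, was at 4.87 ± 1.66 against 3.83 ± 0.661 (log2 0.35). Cfap126, which acts at the basal body, was at 3.13 ± 1.12 against 2.36 ± 0.735 (log2 0.41). Cfap52, Tekt1, Tekt2 and Drc1 had log2 fold changes of 0.22, 0.29, 0.18 and −0.004.

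Ependymal markers and the remaining genes followed the same range. Ccdc153 stood at 2.27, 2.49, 3.09 and 6.04 normalised CPM among the wild-type cords and from 2.13 to 6.5, with a median of 4.70, in the knockout cords. Wild-type replicate 4 was as high as the upper knockout libraries, and 2 knockout libraries lay above it (log2 0.34, SE 0.321, adjusted p = 0.645). Tmem212 stood at 0.715, 0.766, 1.23 and 1.29 and from 0.638 to 2.04, with a median of 1.34 (log2 0.49, SE 0.298, adjusted p = 0.449). Here 5 of the knockout libraries were above the wild-type range. Mia had 0, 0.0567, 0.115 and 0.124 normalised CPM among the wild-type cords and from 0 to 0.204 in the knockout cords, mostly at or near the level of 3 counts, and was not tested. Ak7, an adenylate kinase of the axoneme, was at 5.37 ± 1.8 against 4.14 ± 1.15 (log2 0.37), and Zmynd10, a dynein assembly factor, at 1.61 ± 0.449 against 1.73 ± 0.44 (log2 −0.11).

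**Figure D2:**
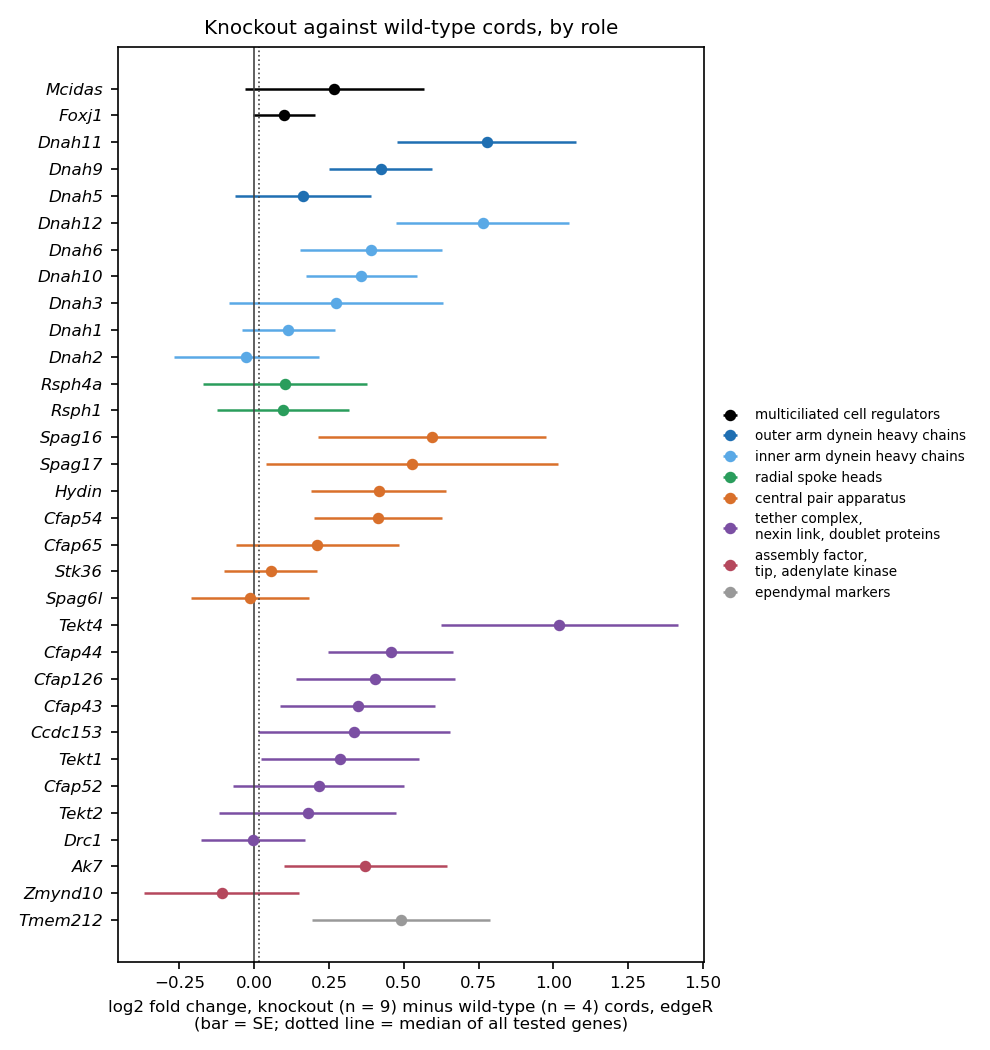
Log2 fold change of each of the 32 tested members, knockout (n = 9) minus wild-type (n = 4) cords, with its standard error, coloured by role. Of the points, 28 lie right of 0, Tekt4, Dnah11 and Dnah12 farthest, and the dotted line marks the median of all tested genes.

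Most members varied together from library to library. Each member's correlation with the mean of the other tested members over the 13 cords (Pearson's r, a description across libraries that share depth and preparation) had a median of 0.71, and 17 of the 32 were at least 0.7. Cfap54 (0.95), Spag16 (0.95), Ak7 (0.93) and Cfap43 (0.91) were highest. The share of all genes that reach 0.7 was not counted, so these values do not show a trait particular to the members. Outside the set, Slc44a5 and Slit1 followed the mean of all members at 0.91 and 0.89. The regulator Foxj1 was at 0.30, Tekt4 at 0.15, Dnah2 at 0.02 and Mcidas at 0.004. This pooled value contains the difference between genotypes, and 1 library weighs on it, as knockout replicate 7 was lowest for 18 members. Within the 9 knockout cords the median was 0.74, within the 4 wild-type cords 0.62, where 5 members were negative, and over the 11 cords without knockout replicates 7 and 9 it was 0.83. In those 11 cords Foxj1 was at 0.62, Dnah2 at 0.39, Tekt4 at 0.33 and Mcidas at −0.18, so the low values of Foxj1 and Dnah2 depend on these libraries. Over all 13, Foxj1 also had the smallest spread, an SD of 0.19 on the log2 scale within genotypes, against a median of 0.45 over members and 0.78 for Spag17, the largest. Counts differed widely, however: Foxj1 had 1008 to 1748 per cord, Spag17 4 to 37 and Mcidas 8 to 25. Counting error weighs more at few counts, so these spreads and the low correlation of Mcidas are not free of it.

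A member score, the mean over the 32 members of log2 CPM minus the gene's mean over the cords, summarises this. Its mean was 0.084 ± 0.32 over the 9 knockout cords (SD) and −0.19 ± 0.23 over the 4 wild-type cords, with a within-group SD of 0.298. Without knockout replicates 7 and 9, the knockout mean was 0.132 ± 0.265 (n = 7). It ran from −0.487 in knockout replicate 7 to 0.45 in knockout replicate 3, and wild-type replicates 1, 3, 2 and 4 were at −0.428, −0.248, −0.205 and 0.123. Knockout replicates 4, 6 and 5 (−0.327, −0.105 and 0.112) lay within the wild-type range, and knockout replicates 8, 1, 2 and 9 were above it at 0.257, 0.261, 0.274 and 0.322.

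**Figure D3:**
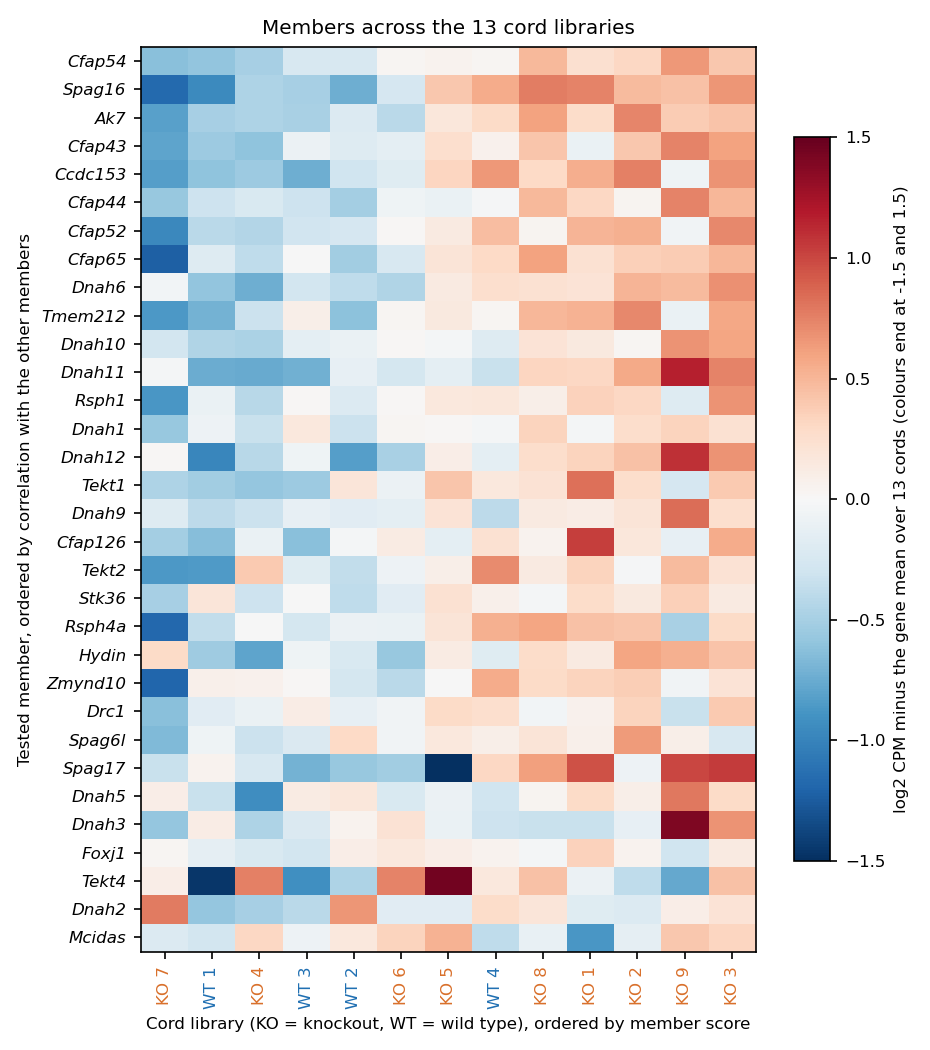
Log2 CPM of each tested member minus its mean over the 13 cords (colour), with libraries ordered by member score from left to right and members by correlation with the rest from top to bottom. The upper rows go from blue to red together, and Foxj1, Tekt4, Dnah2 and Mcidas at the bottom do not follow.

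The 2 libraries that stand apart did so for different members. Knockout replicate 7, the one with muscle transcripts, had the lowest level of 18 of the 32 members. There, the 11 members with at least 10000 exon bases averaged −0.102 on the centred log2 scale and the other 21 averaged −0.688. The library labelled knockout replicate 9 had the highest level of 11 members, 8 of them long, with averages of 0.731 for the long and 0.109 for the other members. The median of 1498 other long genes was 0.216 in that library and −0.115 to 0.066 in the other 12. Over all cords, the long members had a median log2 fold change of 0.39, the others 0.27, and the 1498 other long genes 0.08. The part of length in the members' differences was not tested.

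Markers of segment and of other cell types also varied over the cords. The summed level of 6 lumbosacral Hox genes, which mark the caudal cord, ran from 22.6 to 160 normalised CPM in the knockout and from 86.9 to 165 in the wild-type cords. Knockout replicates 4 and 6 were lowest (22.6 and 36.3), then wild-type replicates 1 and 2 and knockout replicate 7 (86.9, 87.2 and 91.4). These 5 libraries were among the 6 with the lowest member scores, the other being wild-type replicate 3, whose Hox sum was 144. The other 8 libraries were at 115 or more. In a fit with this Hox level as a covariate, chosen after seeing the data, 0 members passed the adjusted threshold, 12 passed the unadjusted one (12.7% of all genes in either direction) and 30 of 32 were positive, with a median of 0.37. Dnah12, Hydin and Dnah6 then had log2 fold changes of 0.87 (SE 0.216), 0.48 (SE 0.124) and 0.48 (SE 0.127), each with an edgeR adjusted p of 0.363. Whether the libraries hold different stretches of cord was not tested.

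**Figure D4:**
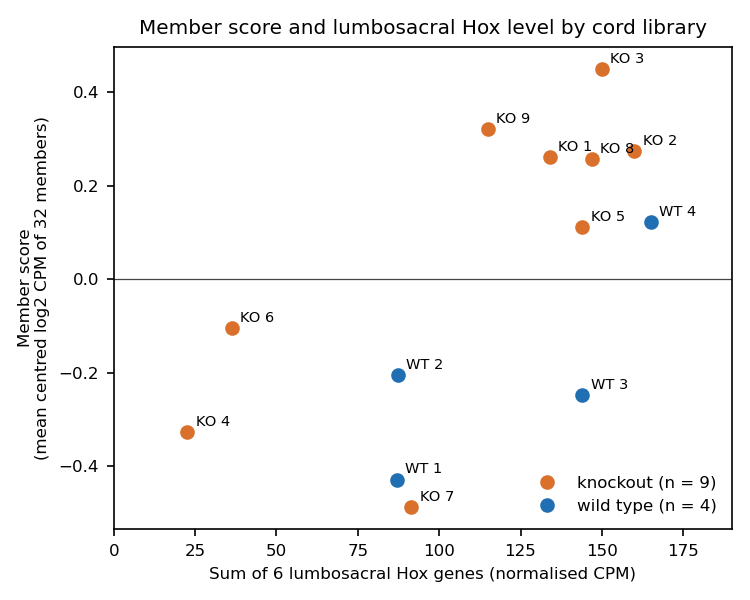
Member score (vertical axis, mean centred log2 CPM of 32 members) against the summed normalised CPM of 6 lumbosacral Hox genes (horizontal axis) for each cord library, knockout in orange and wild type in blue. Below 100 CPM all 5 libraries have a score below 0, and above it only wild-type replicate 3 does.

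The 13 markers of choroid plexus, another ciliated epithelium, summed to 23.1 to 78.3 normalised CPM in the knockout and 24.2 to 31.0 in the wild-type cords, the highest being knockout replicate 7, and 9 of the 13 were tested with 0 called. Of these 9, 5 had a positive log2 fold change (median 0.11), and single markers lay in both directions. Ttr, the most typical transcript of the choroid plexus, stood at 0.133 to 0.922 in the knockout and 1.92 to 5.56 in the wild-type cords, F5 at 0.537 to 7.98 and 0.189 to 1.32, and Aqp1 at 0.17 to 43.6 and 0.0573 to 0.249. The 7 floor plate markers summed to 166 to 261 and 169 to 210. The knockout cords reached higher, with overlapping ranges, for 7 markers of activated microglia (1680 to 6710 against 1800 to 2050), 6 of astrocytes (2140 to 7390 against 2190 to 3100) and 6 of red blood cells (36.5 to 707 against 22.7 to 44.5). The microglia sum was mostly Apoe, which averaged 1770 in the wild-type cords when scaled with the control cultures. Clec7a, Itgax and Cst7 averaged 9.47, 14.8 and 7.49 in the knockout and 1.19, 0.995 and 0.632 in the wild-type cords. The astrocyte sum was in large part Gfap, which averaged 3280 in the knockout and 1590 in the wild-type cords. Slc1a3 and Aldh1l1 differed less, at 135 against 107 and 96.3 against 86.8. None of these lists had a marker at 0 counts over a genotype, and their part in the members' differences was not tested.

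Other genes of the pathway had the same sign as the members only in part. Among all genes tested, 53.1% were positive. Of 58 other axonemal genes tested, 48 were positive with a median log2 fold change of 0.19, and 0 were called. Mns1 stood at 3.85 ± 0.592 against 2.56 ± 0.17 normalised CPM and Spef2 at 3.82 ± 0.967 against 2.56 ± 0.549. Of 17 docking and assembly genes, 10 were positive (median 0.02, with Dnaaf3, Ttc25 and Ccdc114 at log2 0.56, 0.40 and 0.34). Of 16 multiciliogenesis genes, 9 were positive (median 0.04), led by Rfx2 (10.5 ± 1.57 against 7.83 ± 0.94), Myb and Cep63. Of 43 genes of intraflagellar transport and the primary cilium, 19 were positive (median −0.01), and Arl3, Kif3a and Ift22 had log2 fold changes of −0.17, −0.18 and −0.14. Of 18 other ependymal genes, 15 were positive (median 0.35), with Vim at 364 ± 260 against 86.9 ± 8.64, Rarres2 at 4.23 ± 1.58 against 2.18 ± 0.489 and Ccdc146 at 1.77 ± 0.526 against 1.02 ± 0.497. Vim is also made by reactive astrocytes and other cells. No gene of these lists passed the adjusted threshold with edgeR.

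The 10 genes outside the set whose log2 CPM followed the member score most closely over the 13 cords, among genes with a mean of at least 1 CPM, were Ttc21a (r = 0.93), Slc44a5 (0.91), Slit1 (0.89), 1810020O05Rik (0.88), Gas2l2, Dnah7a, Spag8, Cfap46, Tmem147os and Ccdc40 (0.87 to 0.88). Of these, 3 (Dnah7a, Cfap46 and Ccdc40) are on the list of other axonemal genes.

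In the cultures, the miR-146a LNA was compared with the control LNA, to ask whether cilia genes differ when the microRNA is blocked in motor neurons. Of 34 members, 23 passed the filter on low counts. A single member, the inner arm dynein heavy chain Dnah2, was called higher (1 of 23, 4.35%, against 2.4% of all 19099 genes tested), and 0 were called lower (against 6.16% of all genes). The median log2 fold change was 0.04 over the members and 0.01 over all genes. All genes called split into 458 higher and 1177 lower, and with library size scaling into 741 and 831, under which Dnah2 was still called.

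Dnah2 (chromosome 11, 69420809 to 69549110, minus strand) stood at 1.31, 1.80 and 1.11 normalised CPM after the miR-146a LNA and at 0.606, 0.439 and 0.671 after the control LNA, from 54, 119 and 69 counts against 36, 24 and 35. All 3 LNA libraries lay above all 3 controls. The log2 difference was 1.30, with an SE of 0.323, and the adjusted p was 0.0172 in edgeR and 0.00519 in DESeq2. The call depended on single libraries: the adjusted p was 0.0826 without LNA replicate 2, 0.0501 without control replicate 1 and 0.102 without control replicate 2. The antisense gene Dnah2os, which shares 2.1% of the exon bases of Dnah2, had 2 counts in the LNA and 6 in the control cultures.

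The other members with small p-values did not pass. Ak7 stood at 0.536, 0.363 and 0.645 normalised CPM after the LNA and at 0.993, 0.751 and 0.883 after the control, all 3 below the controls (log2 −0.77, SE 0.362, adjusted p = 0.214). Dnah11 stood at 0.390, 0.166 and 0.161 against 0.522, 0.549 and 0.345, with LNA replicate 1 inside the control range (log2 −1.03, SE 0.513, adjusted p = 0.244). Dnah9 stood at 6.6, 5.29 and 6.45 against 7.66, 7.16 and 7.14, all 3 below (log2 −0.26, SE 0.14, adjusted p = 0.282). Sntn and Cfap65, the last of the 6 members with the smallest p, rested on few counts. Sntn stood at 0.146, 0.605 and 0.548 against 0.505, 0.824 and 0.959 (log2 −0.77, adjusted p = 0.343), and Cfap65 at 0.463, 0.272 and 0.0645 against 0.236, 0.0732 and 0.0192 (log2 1.19, adjusted p = 0.412). Both overlapped between the groups.

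Foxj1 stood at 0.073, 0.242 and 0.532 normalised CPM after the LNA, from 3, 16 and 33 counts, and at 0.151, 0.110 and 0.211 after the control. LNA replicate 1 was the lowest of all 6 libraries and replicate 3 the highest (log2 0.88, SE 0.654, adjusted p = 0.461). The abundant members were nearly equal between groups. Stk36 was at 56.3 ± 5.68 after the LNA and 56.8 ± 3.05 after the control (SD, n = 3 each), and Drc1 at 27.7 ± 0.631 and 27.7 ± 0.469. Mcidas was at 1.74 ± 0.342 and 1.68 ± 0.228.

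Of the 11 members not tested, 10 had 0 to 15 counts in each culture library, and Dnah6 had more in the controls. Ccdc153 had 2 counts after the LNA and 4 after the control, Tmem212 0 and 6, Tekt4 0 and 2, and Mia 11 and 8, each over 3 libraries. Dnah6 had 3, 1 and 6 counts after the LNA and 32, 28 and 6 after the control, or 0.0730, 0.0151 and 0.0967 against 0.538, 0.513 and 0.115 normalised CPM. All 3 LNA libraries lay below the controls, but the replicates 3 had 6 counts each and differed only by scaling. Dnah6 failed the filter, but was called lower with no filter (log2 −2.65, adjusted p = 0.0098 with edgeR) and without LNA replicate 3 or control replicate 3. In the fits with a library left out, it passed the filter only through the controls where it was high. Those calls therefore add no support.

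**Figure D5:**
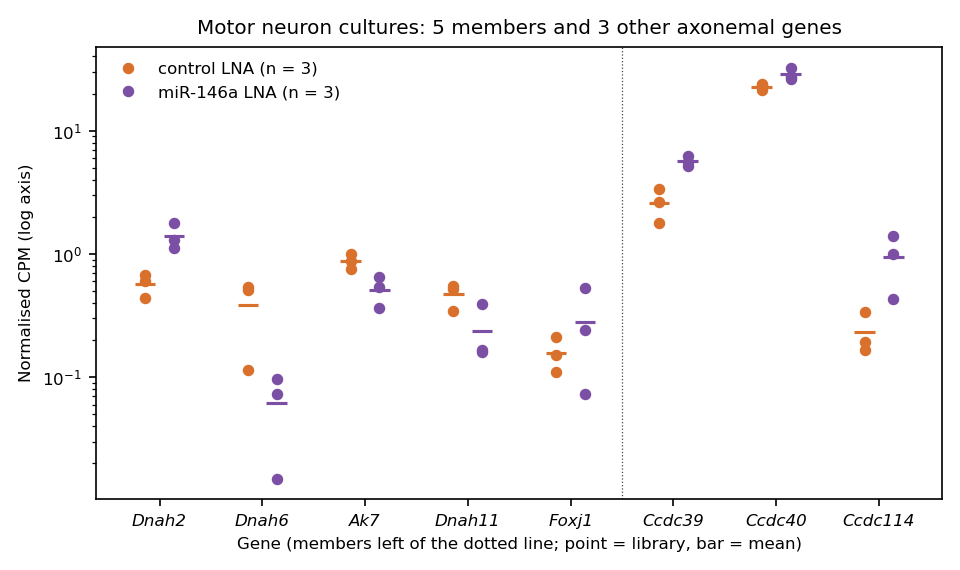
Normalised CPM (log axis) of 5 members (left of the dotted line) and 3 other axonemal genes in each culture library, with the group mean as a bar, control LNA in orange and miR-146a LNA in purple (n = 3 each). The groups are apart for Dnah2 and Ak7 and overlap for Dnah11 and Foxj1. For Dnah6, the replicates 3 had 6 counts each and are apart only by scaling. Ccdc39, Ccdc40 and Ccdc114 are higher after the miR-146a LNA.

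Some partners of the axoneme outside the set were called. Among all genes tested, 2.4% were called higher and 6.16% lower, and whether any list departs from these shares was not tested. Of 42 other axonemal genes tested, 2 were higher and 0 lower. Ccdc39 and Ccdc40, the partners that set the spacing of spokes and inner arms along the doublet, stood at 5.58, 6.26 and 5.14 against 1.78, 3.35 and 2.63 and at 32.5, 26.3 and 27.1 against 23.3, 23.8 and 21.2 normalised CPM (log2 1.13, adjusted p = 0.00218, and log2 0.33, adjusted p = 0.0322, with edgeR). Cfap45 had the next smallest p (log2 1.23, adjusted p = 0.0674). Of 15 docking and assembly genes, 1 was higher and 0 lower: Ccdc114, a subunit of the docking complex of outer arm dynein, at 0.998, 1.41 and 0.435 against 0.336, 0.165 and 0.192 (log2 2.02, adjusted p = 0.0139). Dnaaf1 and Cfap298 followed and did not pass. Of 14 multiciliogenesis genes, Gmnn, which encodes geminin, was higher (2.84 ± 0.335 against 1.72 ± 0.246, adjusted p = 0.048) and the RFX factor Rfx3 lower (9.26 ± 0.786 against 12.4 ± 0.709, adjusted p = 0.0264).

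Genes of intraflagellar transport and the primary cilium were called lower in 5 and higher in 1 of 43 cases (11.6% and 2.33%, against 6.16% and 2.4% of all genes tested). With library size scaling, 2 were lower and 1 higher (4.35% and 3.88% of all genes). Wdr60, a subunit of the retrograde dynein, was higher at 10.3 ± 0.801 against 4.9 ± 0.165 normalised CPM (log2 1.07, edgeR adjusted p = 5.21e-05). Lower were Bbs9 (38.1 ± 2.32 against 52.5 ± 0.741, adjusted p = 0.000309), the retrograde dynein heavy chain Dync2h1 (24.3 ± 2.33 against 30.7 ± 2.55), Kif3b, Bbs7 and Kifap3. Of 9 other ependymal genes, 0 were called, Lrriq1, Vim and Prom1 having the smallest p. The floor plate is a ventral midline structure that the same differentiation can yield. Among its 4 tested markers, 2 were called lower, one of them Shh at 14.8, 16.2 and 18.0 against 23.3, 22.8 and 23.2. The marker Foxa2 went the other way and was not called, at 1.49 ± 0.627 against 1.03 ± 0.117 (log2 0.52, edgeR adjusted p = 0.345). These markers thus did not move as 1 set. Their part in the differences of cilia genes was not tested.

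Dnah2, the member called in the cultures, was not called in the cords, where it stood at 9.41 ± 2.68 in the knockout and 9.58 ± 3.87 in the wild-type cords. Conversely, Dnah12, with the smallest p in cords, had 9 counts after the LNA and 9 after the control, and Dnah11, positive in cords, was negative in cultures. The difference between the 2 effects was not tested.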

How the data were processed

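Gene tables from 13 spinal cord and 6 motor neuron culture libraries were analysed. The authors deposited whole-number counts per gene, aligned with STAR 2.7.9a1 and counted with featureCounts on GRCm38, per the submitters' processing notes. The deposited FPKM equal the count divided by gene length and library total, checked in every library, and served only to compare levels between genes. Symbols came from GENCODE M21 (55141 of 55487 genes), whose start and end matched the tables for 99.4% of matched genes and for 34 of 34 members. Libraries were grouped by label. Cord replicate numbers follow accession order and only name libraries.

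Counts were tested in edgeR 4.0.16 (R 4.3.3) by its quasi-likelihood test, robust form, with only the groups compared in each fit. Low counts were removed by filterByExpr, and libraries were scaled by TMM, with Benjamini-Hochberg adjustment over all genes tested and a threshold of 0.05. The script was tested on simulated data with less spread than most members showed in the cords. The changes were placed only in genes above a count limit. That test checks the code and does not show what could be detected here. DESeq2 1.42.0, limma 3.58.1, other scalings and filters, single libraries left out and, for cultures, a replicate block were alternatives. The members, roles and gene lists were chosen with earlier results of these data known. For the wild-type cords, values in every library are given for Foxj1, Ccdc153, Tmem212, Mia and the 6 members with the smallest p in the cord comparison. The knockout cords are given as a range, mostly with a median. For the cultures, every library is given for Foxj1, for the 6 members with the smallest p there and for members called. Ccdc153, Tmem212 and Mia are given there as summed counts. From each other list, the 3 genes with the smallest p are named (1 is not reported here), beside some chosen after their values were seen (Stk36, Drc1, Dnah6, Shh).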

Additional observations from a re-analysis of the deposited data

Results flagged for a closer look

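In 4 of 67 groups of libraries, the highest library lay far from the others of its group for 1 member, and chance alone flags about 1 group in 20. Dnah2 stood at 15.6 normalised CPM in knockout cord replicate 7, against 6.42 to 10.5 in the other 8 knockout cords. Dnah3 stood at 3.13 in the library labelled knockout replicate 9, against 0.745 to 1.87. Dnah9 stood at 21 in the same library, against 9.3 to 13.9. Cfap52 stood at 2.32 in wild-type cord replicate 4, against 1.24 to 1.39 in the other 3 wild-type cords.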

How the results depend on the processing

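In the cord comparison, no member was called under any of the 22 alternatives, and the members' median log2 fold change stayed between 0.236 and 0.416. Of all genes, DESeq2 called 310 higher and 71 lower, limma 1 and 2, and the fit without knockout replicates 7 and 9 called 6 and 2, while leaving out 1 library gave 0 to 2 higher and 0 to 1 lower. In the cultures, genes called higher (458 in the reported fit) numbered 749 with DESeq2, 744 with limma, 741 with library size scaling and 868 with no filter, and 172 to 677 on leaving out 1 library, with 606 to 1308 lower (1177 in the reported fit). The lowest of both, 172 and 606, came without control replicate 2. Members called on leaving out 1 library were 0 to 1 higher (Dnah2) and 0 to 1 lower (Dnah6), and with no filter 1 was lower (Dnah6). The median of members between wild-type cords and control cultures was 2.854 with no filter and 2.671 with a filter of 1 CPM, where other members are tested, against 3.198 as reported. The same replicate numbers appear in both culture groups, but same-numbered libraries did not deviate together (r = 0.01, −0.05 and 0.006). A replicate block, in which they are treated as pairs, called 552 genes higher and 1241 lower, with 1 member higher (Dnah2) and 0 lower. No called value reversed, but the members' median between miR-146a LNA and control cultures, 0.041 as reported, lay on both sides of 0 on leaving out 1 library (−0.061 without LNA replicate 2, −0.023 without control replicate 2, up to 0.264 without control replicate 1). In the cords, 27 to 32 of 32 tested members were positive on leaving out 1 library, and the sign of Drc1, Spag6l, Dnah2 and Zmynd10 differed from the reported one in 14, 10, 7 and 3 of 22 alternatives, and that of Rsph1, Tekt2 and Stk36 in 1 each. Depth limits the members with few counts in the cultures, such as Cfap65 (1 to 19 counts per library, SE 0.801 on the log2 scale). What size of difference could be detected there was not computed.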
